A study of Mus musculus with 7 samples.

Results

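Chromatin immunoprecipitation followed by sequencing (ChIP-seq) of β-catenin and of Pygo2 in branchial arches of mouse embryos was examined at 10 genes of the bone morphogenetic protein (BMP) pathway. The genes, given by name, were the ligand genes Bmp2, Bmp4, Bmp5 and Bmp7, the receptor gene Bmpr1a, the inhibitory Smad genes Smad6 and Smad7, and the target genes Id1, Id2 and Id3, which are 10 of 21883 protein-coding genes in the annotation. Every peak whose centre lay inside one of these genes or within 100 kb of it was taken. The groups used were the β-catenin BA2 library and the Pygo2 BA2 library, both from wild-type tissue at 10.5 days post coitum, and the headers of both lists name IgG BA1 as their control. What the names BA1 and BA2 stand for is not stated in the labels, nor is the strain, and each library pooled arches of many embryos. The β-catenin library held 13672937 tags and 1079 peaks, and the Pygo2 library 15009636 tags and 7150 peaks. Of these tags, 15795 for β-catenin and 111009 for Pygo2 lay in peaks. The mean was 14.6 and 15.5 tags per peak, not far above the calling minimum of 11 and 10. With 1 library behind each list, no value below has a replicate error and no difference between the proteins was tested. A gene without a listed peak can still hold tags below the calling minimum of 11 tags for β-catenin or 10 tags for Pygo2. Such a gene can also hold a candidate site that reached the minimum and was then filtered out. Of 4036 β-catenin and 21859 Pygo2 candidates, 2837 and 12515 were removed by comparison with IgG, and 120 and 2194 by local signal.

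BMP ligands bind a pair of receptor types on the cell surface, of which Bmpr1a is a type I receptor, and the receptors phosphorylate Smad proteins that enter the nucleus and switch on target genes. The Id genes are classic direct targets and encode inhibitors of basic helix-loop-helix transcription factors, while Smad6 and Smad7 are also induced by the pathway and block it at the receptors. In branchial arches, BMP ligands made by epithelium and mesenchyme take part in the patterning of the jaw and of the outflow tract of the heart. In Wnt signalling, β-catenin carries the signal into the nucleus, and Pygo2, a PHD-finger protein, is linked to it through Bcl9.

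Smad6 was the nearest gene of 7 Pygo2 peaks, more than any other of the 10 genes in the full list, and a β-catenin peak overlapped the Pygo2 peak at its annotated start site. The RefSeq promoter window of Smad6 (250 bases before to 50 bases after the start, GRCm38.p6, chr9:64022010-64022309, minus strand) is shown because peaks of both proteins reached into it. A match to the palindromic SMAD box GTCTAGAC is in capitals, and the last 44 bases, from gcatatg to the end, lay under the β-catenin peak and under the Pygo2 peak.

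Smad6: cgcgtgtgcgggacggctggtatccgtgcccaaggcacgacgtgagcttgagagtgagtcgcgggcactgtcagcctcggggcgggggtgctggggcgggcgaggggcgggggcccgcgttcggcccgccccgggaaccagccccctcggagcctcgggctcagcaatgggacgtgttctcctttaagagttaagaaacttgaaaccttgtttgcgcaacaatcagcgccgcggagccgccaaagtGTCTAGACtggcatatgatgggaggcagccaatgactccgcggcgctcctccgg

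The window of Id3 (chr4:136143572-136143871, plus strand) is shown beside it, because a Pygo2 peak ended 38 bases before its first base, and it held none of the 6 motifs searched. The third sequence is the 64 bases in which the peaks of both proteins overlapped within the window of Bmp7, at the start of the neighbouring gene Rbm38 (chr2:173021779-173021842, plus strand). The fourth is the part of the Pygo2 peak inside Bmp4 that falls into the promoter window of the overlapping gene Gm15222 (chr14:46387228-46387313, plus strand, 86 of the 167 bases of the peak).

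Id3: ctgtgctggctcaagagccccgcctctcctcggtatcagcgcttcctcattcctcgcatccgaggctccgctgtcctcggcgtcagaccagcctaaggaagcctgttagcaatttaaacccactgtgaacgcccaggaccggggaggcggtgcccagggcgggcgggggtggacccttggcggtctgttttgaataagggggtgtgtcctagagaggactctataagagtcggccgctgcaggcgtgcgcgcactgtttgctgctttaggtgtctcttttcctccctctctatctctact

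Rbm38: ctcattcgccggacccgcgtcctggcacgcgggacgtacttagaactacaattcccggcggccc

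Bmp4: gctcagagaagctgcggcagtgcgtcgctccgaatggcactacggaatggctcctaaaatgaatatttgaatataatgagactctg

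Of the 10 genes, 4 had a β-catenin peak in the window (Bmp7, Smad6, Id1 and Id3) and 7 had a Pygo2 peak (these 4 with Bmp4, Bmpr1a and Smad7). Among all protein-coding genes the shares were 17.2% for β-catenin and 57.6% for Pygo2. All 4 genes with a β-catenin peak also had a Pygo2 peak. This was usual: across the annotation, 3755 gene windows held β-catenin, and 3301 of these held Pygo2 as well. Those 3301 make up 15.1% of all protein-coding genes. At 2 of the 10 genes (Bmp7 and Smad6) a pair of peaks overlapped by at least 1 bp, against 6.32% of all protein-coding genes. The loci held 6 β-catenin peaks and 31 Pygo2 peaks in all. Bmp2, Bmp5 and Id2 had no peak of either protein. The 10 genes had a median of 0 β-catenin peaks and 2.5 Pygo2 peaks per window, and all protein-coding genes a median of 0 and 1.

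**Figure D1:**
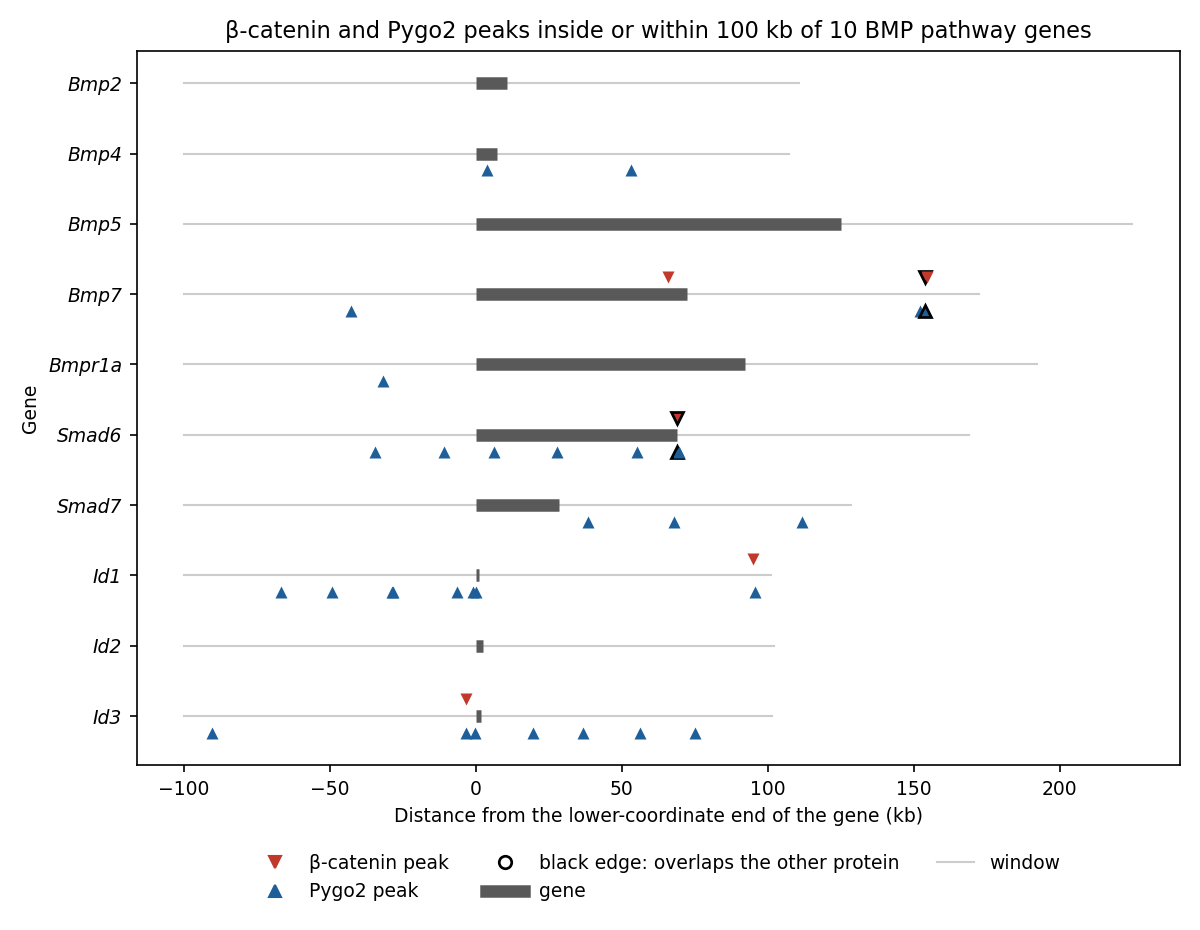
Position of each β-catenin peak (red) and Pygo2 peak (blue) around the 10 genes, in kb from the lower-coordinate end of the gene. Dark bars are genes, grey lines the windows of 100 kb on each side, and a black edge marks a peak that overlaps one of the other protein; Pygo2 peaks are scattered over Smad6 and its flanks, while the windows of Bmp2, Bmp5 and Id2 are empty.

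A window of this size often holds other genes, so the peaks were also given to their nearest protein-coding gene. The BMP gene was the nearest for 3 of the 6 β-catenin peaks (50%, 95% Wilson interval 18.8 to 81.2%) and for 16 of the 31 Pygo2 peaks (51.6%, interval 34.8 to 68.0%). Here and below, intervals cover counting error only and take peaks as independent. Peaks of 1 locus share their neighbours, and 7 of the 16 lay at Smad6, so the intervals can be too narrow. Counted in this way, Bmp7, Smad6 and Id3 kept 1 β-catenin peak each, against 4.18% of protein-coding genes that were the nearest to any. Bmp4, Bmp7, Smad6, Smad7, Id1 and Id3 kept a Pygo2 peak, against 23.2%. A gene with few neighbours is the nearest gene over a longer stretch. The 10 genes had a median of 1.5 other protein-coding genes in the window, and all protein-coding genes a median of 4. The nearest-gene shares here and below were not matched for the number of neighbours or for gene length. The effect of either on these shares was not tested. The Pygo2 peak at Bmpr1a and the β-catenin peak at Id1 were nearer to another gene.

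**Figure D2:**
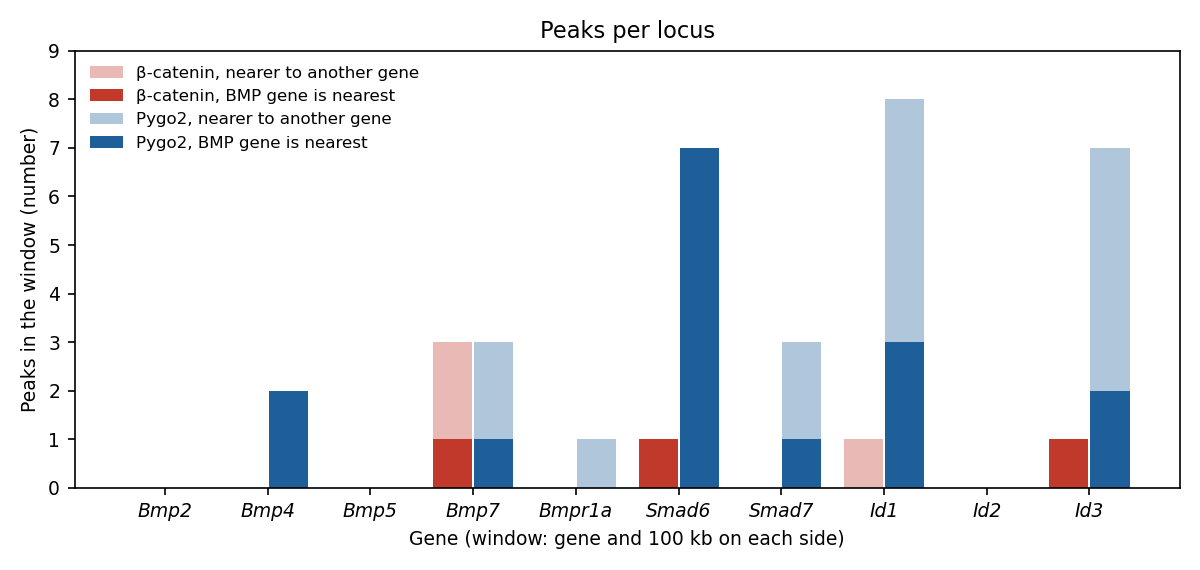
Number of β-catenin peaks (red, left bar) and Pygo2 peaks (blue, right bar) in the window of each gene, with the full colour for peaks whose nearest protein-coding gene is the BMP gene. All 7 Pygo2 peaks at Smad6 were nearest to Smad6, whereas 3 of 8 at Id1 and 2 of 7 at Id3 were nearest to the Id gene.

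Among the ligand genes, peaks were found at Bmp4 and Bmp7 and not at Bmp2 and Bmp5. Bmp4 (gene ID 12159, chromosome 14, 46383525 to 46390669), a ligand gene expressed in arch epithelium and mesenchyme, had 2 Pygo2 peaks and no other protein-coding gene in its window. The first, at 46387147 to 46387313, lay inside the gene, 3.44 kb downstream of the annotated start, and the second, at 46436677 to 46436843, lay 46.1 kb upstream of the gene. The closest β-catenin peak on the chromosome was 4674 kb from Bmp4, so the site inside Bmp4 was listed for Pygo2 alone. At least 2 Pygo2 peaks in the window were found for 36.6% of protein-coding genes, and being the nearest gene of at least 2 for 5.44%.

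Bmp7 (gene ID 12162, chromosome 2, 172868012 to 172940321), whose product forms dimers with other BMPs, was the ligand gene with peaks of both proteins, with 3 of each in its window. At least 3 β-catenin peaks were found for 1.43% of protein-coding genes, and at least 3 Pygo2 peaks for 23%. The β-catenin peak inside the gene, at 172933873 to 172934041, lay 6.36 kb from its higher-coordinate end, within the lncRNA gene Gm40010 as well. The nearest Pygo2 peak to it was 86.1 kb away. The Pygo2 peak nearest to Bmp7, at 172825222 to 172825388, lay 42.7 kb beyond the lower-coordinate end. The peaks inside Bmp7 and beside it were thus each listed for 1 of the proteins.

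The other 4 peaks in the window of Bmp7 lay at Rbm38, which encodes an RNA-binding protein. They comprised β-catenin peaks at 173021674 to 173021842 and at 173022347 to 173022515, and Pygo2 peaks at 173020019 to 173020185 and at 173021779 to 173021945. The first β-catenin and the second Pygo2 peak overlapped by 64 bp, the stretch printed above, and their centres were 133 bp and 29 bp from the end of Rbm38. This overlap was 81.4 kb from Bmp7 by the β-catenin centre.

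For Bmp2 (gene ID 12156, chromosome 2, 133552159 to 133562896), a ligand gene that is also active in heart valve formation, the nearest β-catenin peak was 1421 kb away and the nearest Pygo2 peak 736 kb away. Bmp5 (gene ID 12160, chromosome 9, 75775365 to 75900316), a ligand gene known for its part in the external ear and skeleton of mice, had its nearest β-catenin peak at 2276 kb and its nearest Pygo2 peak at 336 kb. Both genes stand in windows with few other genes: no other protein-coding gene at Bmp2 and 1 at Bmp5. Of the 3233 protein-coding genes with at most 1 other such gene in the window, 29.2% had a Pygo2 peak and 8.1% a β-catenin peak, so gene-poor windows held fewer peaks in general. The 10 genes include 5 of this kind (Bmp2, Bmp4, Bmp5, Smad6 and Id2), of which 2 had a Pygo2 peak and 1 a β-catenin peak.

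The receptor gene Bmpr1a (gene ID 12166, chromosome 14, 34411061 to 34503336) had 1 Pygo2 peak and no β-catenin peak. The Pygo2 peak, at 34379000 to 34379166, lay 32.0 kb from Bmpr1a and inside Mmrn2, which encodes an extracellular matrix protein of blood vessels. No peak was listed inside the 92.3 kb of Bmpr1a itself, and the next Pygo2 peak beyond the window was 1091 kb away.

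Smad6 (gene ID 17130, chromosome 9, 63953076 to 64022085), whose product inhibits the Smads activated by BMP receptors and is known for its role in the cardiac valves and outflow tract, had 1 β-catenin and 7 Pygo2 peaks. At least 7 Pygo2 peaks in the window were found for 5.15% of protein-coding genes, and for 9 of the 3233 genes with at most 1 other gene in the window (0.278%). Being the nearest gene of at least 7 Pygo2 peaks was found for 15 protein-coding genes (0.0685%), and 9 of them had more than 7. In the full list this makes Smad6 the gene of the 10 with the most Pygo2 peaks of its own by this count, ahead of Id1 with 3 and of Bmp4 and Id3 with 2 each. These counts were not matched for gene length, which was 69 kb for Smad6, 1.16 kb for Id1, 7.14 kb for Bmp4 and 1.57 kb for Id3. The order did not hold in a shortened list: among the 1079 first-listed Pygo2 peaks, an equal length to the β-catenin list, Smad6, Id1 and Id3 had 2 peaks of their own each.

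The 7 Pygo2 peaks at Smad6 were spread over 104 kb. Going from the 3′ side to the start of the gene, the peaks at 63918353 to 63918519 and 63942032 to 63942198 lay 34.6 kb and 11 kb beyond the 3′ end. The peaks at 63959159 to 63959325, 63980795 to 63980961 and 64008038 to 64008204 lay inside the gene, 6.17 kb and 27.8 kb from the 3′ end and 14.0 kb from the 5′ end. The peak at 64021937 to 64022103 covered the annotated start site at 64022059, and that at 64022748 to 64022914 lay 0.746 kb upstream of the 5′ end of the gene.

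The β-catenin peak of Smad6, at 64021885 to 64022053, overlapped the Pygo2 peak at the start site by 117 bp, and their centres were 51 bp apart. Smad6 was the nearest gene of both, as 1.14% of protein-coding genes were for such a pair. The β-catenin centre was 90 bp and the Pygo2 centre 39 bp downstream of the start site. Of the 169 bases of the β-catenin peak 44 fell into the promoter window printed above, and of the 167 bases of the Pygo2 peak 94.

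The SMAD box GTCTAGAC of the Smad6 window spans the start site, at 64022056 to 64022063, inside the Pygo2 peak and 2 bases outside the edge of the β-catenin peak. The box is a palindrome, so that it reads the same on both strands, and was found in 70 of 32851 RefSeq promoter windows (0.213%). It was present in 10 of the 2684 windows that a Pygo2 peak overlapped (0.373%) and in 3 of the 246 windows that a β-catenin peak overlapped (1.22%). These counts are small and each includes the Smad6 window itself. A match describes the letters and not binding by a Smad protein. The Smad6 window held neither TCF/LEF motif (CTTTGAT or CTTTGAA), nor the GC box GGCGCC, nor the E-box CACGTG.

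**Figure D3:**
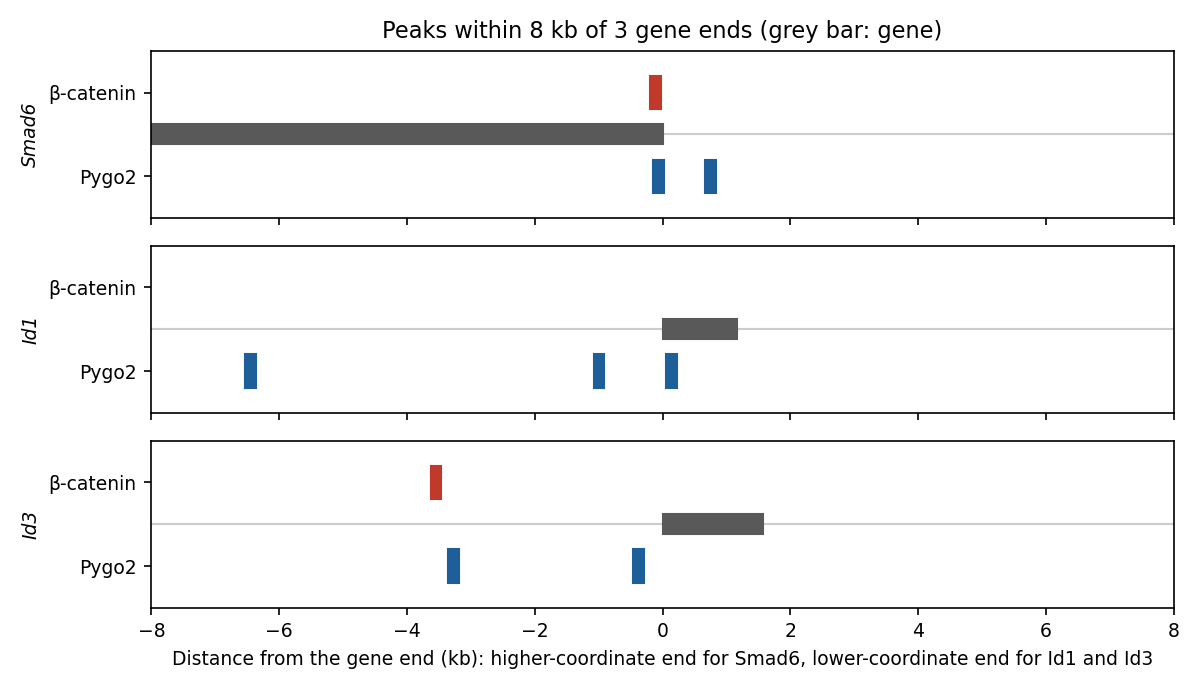
Peaks of β-catenin (red, above) and Pygo2 (blue, below) within 8 kb of the higher-coordinate end of Smad6 and the lower-coordinate ends of Id1 and Id3, to scale, with the gene as a grey bar. The peaks overlap by 117 bp at Smad6, lie side by side with a gap of 105 bp at Id3, and are for Pygo2 alone at Id1.

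Smad7 (gene ID 17131, chromosome 18, 75367365 to 75395935), which blocks both BMP and TGF-β receptors, had 3 Pygo2 peaks and no β-catenin peak. None lay inside the gene. The closest, at 75405559 to 75405725, was 9.71 kb beyond the higher-coordinate end, and those at 39.2 kb and 83 kb lay inside the neighbouring gene Ctif, which encodes a translation initiation factor. The nearest β-catenin peak on the chromosome was 1416 kb away. The inhibitory Smad genes thus differed in these lists, with 7 and 1 Pygo2 peaks of their own at Smad6 and Smad7, and with a β-catenin peak at Smad6. At 1 library per protein this difference was not tested.

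**Figure D4:**
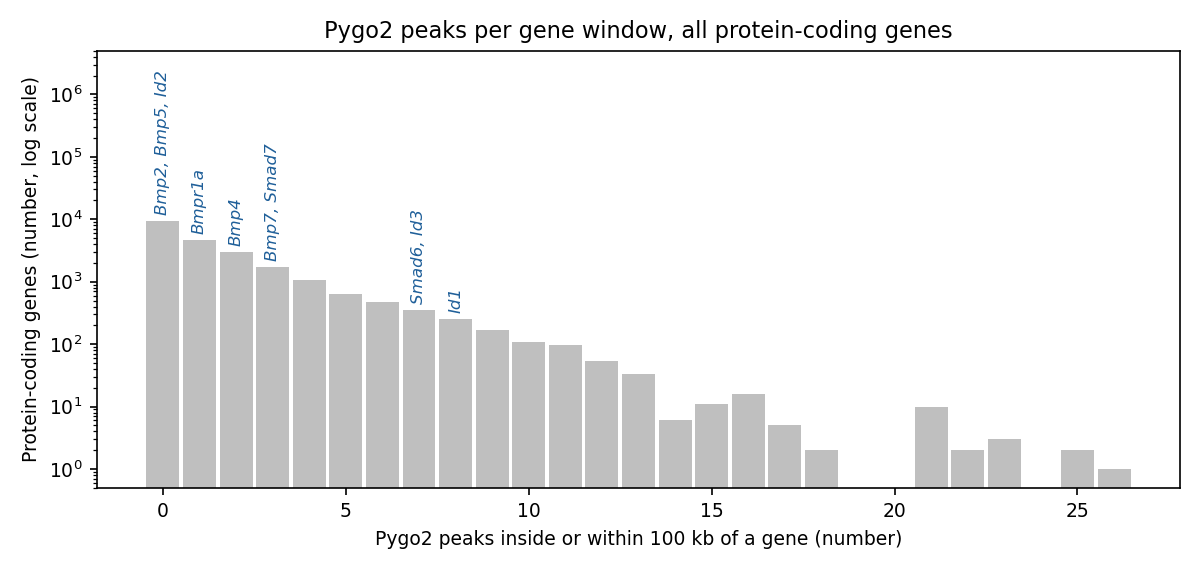
Number of protein-coding genes (log scale) by the number of Pygo2 peaks inside or within 100 kb of the gene, with the 10 genes named above their bar. Smad6 and Id3 with 7 peaks and Id1 with 8 stand in the upper tail, which reaches 26, and Bmp2, Bmp5 and Id2 in the class without a peak.

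Of the target genes, Id1 and Id3 had Pygo2 peaks at their ends and Id2 had none. Id1 (gene ID 15901, chromosome 2, 152736251 to 152737410) had the most Pygo2 peaks in its window, 8, a number that 3.53% of protein-coding genes reached. Its nearest peak, at 152736303 to 152736469, lay inside the gene, 0.135 kb from the lower-coordinate end. Further peaks of its own lay 0.995 kb (152735173 to 152735339) and 6.45 kb (152729720 to 152729886) beyond that end. Id1 was the nearest gene of these 3 peaks, as 1.52% of protein-coding genes were for at least 3.

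The other 5 Pygo2 peaks near Id1 lay at its neighbours. Of these, 4 were inside H13, which encodes a signal peptide peptidase. The earliest-listed of them, at position 174 of 7150, was 49.3 kb from Id1 and overlapped the promoter window of Mcts2, an imprinted retrogene in an intron of H13. The fifth, at 152831706 to 152831872, lay inside Bcl2l1, a survival gene of the Bcl2 family, 94.4 kb from Id1. The β-catenin peak in the window, at 152830977 to 152831145, was also inside Bcl2l1, 93.7 kb from Id1, and its centre was 728 bp from that Pygo2 peak. Without the neighbours' peaks, Id1 had Pygo2 peaks and no β-catenin peak.

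Id3 (gene ID 15903, chromosome 4, 136143822 to 136145392) had 1 β-catenin peak and 7 Pygo2 peaks. For β-catenin the peak spanned 136140191 to 136140359, 3.55 kb upstream of the gene. A Pygo2 peak at 136140465 to 136140631 lay 3.27 kb upstream, with a gap of 105 bp between the peaks and 273 bp between their centres, so that they were not counted as overlapping. Both lay inside the lncRNA gene Gm42329. A second Pygo2 peak, at 136143367 to 136143533, lay 0.372 kb upstream of the start, next to the window printed above.

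These upstream peaks of Id3 stood early in the lists. The Pygo2 peak next to β-catenin was at position 15 of 7150, the earliest of the 31 at the loci, and the Pygo2 peak at the start was at position 258. The β-catenin peak was at position 89 of 1079, the earliest of the 6. The order of the lists is not stated in the headers. Both lists fall into runs that follow the genome (40 runs for β-catenin and 50 for Pygo2, the longest with 255 and 981 peaks), so that the position within a run is a matter of chromosome order. The Pygo2 peak at position 15 shares its run with 1 other peak, and the β-catenin peak lies in a run from position 85 to 98.

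The other 5 Pygo2 peaks of the Id3 window lay between 18.2 and 90.4 kb from Id3 and were nearer to other genes. One, at 136053319 to 136053485, was 9 bp from the end of Rpl11, a ribosomal protein gene. E2f2, a cell cycle transcription factor gene, was the nearest gene of 3, and Asap3 of 1. Id2 (gene ID 15902, chromosome 12, 25093799 to 25096092), which is also a BMP target in many tissues, had no peak, and the nearest were at 1969 kb for β-catenin and 385 kb for Pygo2.

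Within 1 kb of an end of the gene, Smad6 alone had a β-catenin peak (2.01% of protein-coding genes), and Smad6, Id1 and Id3 had a Pygo2 peak (16.5%). Within 5 kb, Id3 joined for β-catenin (3.43%) and Bmp4 for Pygo2 (22.6%). Of the 31 Pygo2 peaks of the loci, 19 (61.3%, Wilson interval 43.8 to 76.3%) lay over 10 kb from the BMP gene. Another 6 (19.4%, interval 9.19 to 36.3%) lay inside it. With 100 kb on each side, most of each window lies over 10 kb from the gene. The same shares for all protein-coding genes are not given here, so these counts do not show that the peaks lie unusually far away.

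The promoter table had an entry for 6 of the 10 genes (Bmp4, Bmp5, Bmpr1a, Smad6, Id2 and Id3) and none for Bmp2, Bmp7, Smad7 and Id1. Of these windows, that of Smad6 overlapped a β-catenin peak (0.749% of all windows did) and also a Pygo2 peak (8.17%), and both overlapped in 0.432% of all windows. The 6 motifs were searched on both strands. They were TCF/LEF CTTTGAT and CTTTGAA, the SMAD box GTCTAGAC, the GC box GGCGCC, the BMP response element, which is the GC box followed after any 5 bases by GTCT, and the E-box CACGTG. Besides the SMAD box of Smad6, the windows of Bmpr1a and Id2 each held 1 GC box, which 11.9% of all windows held, and that of Bmp4 held 1 E-box (7.15%). The TCF/LEF motifs, which 3.73% and 5.14% of all windows held, and the BMP response element (0.0731%) were in none of the 6 windows. The GC boxes of Id2 and Bmpr1a are shown in capitals with their flanks, from chr12:25096302-25096339 and chr14:34502723-34502760, both on the minus strand, since neither window had a peak.

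Id2: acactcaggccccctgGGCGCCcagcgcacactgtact

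Bmpr1a: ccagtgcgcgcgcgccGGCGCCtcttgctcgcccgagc

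How close the peaks of the proteins stood to each other was compared with the whole lists. Of the 6 β-catenin peaks at the loci, 2 overlapped a Pygo2 peak (33.3%, Wilson interval 9.68 to 70.0%), and of all 1079 β-catenin peaks 273 did (25.3%). Of the 31 Pygo2 peaks at the loci, 2 overlapped a β-catenin peak (6.45%, interval 1.79 to 20.7%), and of all 7150 Pygo2 peaks 273 did (3.82%). A Pygo2 centre within 1 kb was found for 5 of the 6 β-catenin peaks at the loci (83.3%, interval 43.6 to 97.0%) and for 439 of all 1079 (40.7%, interval 37.8 to 43.6%). Of these 5, the peaks at Smad6 and Id3 had the BMP gene as the nearest, and the others lay at Rbm38 and inside Bcl2l1. The exception was the β-catenin peak inside Bmp7. The loci were chosen by gene and with earlier results known, the 6 peaks come from 5 places, and both lists share their IgG control, so no test of this difference was made.

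**Figure D5:**
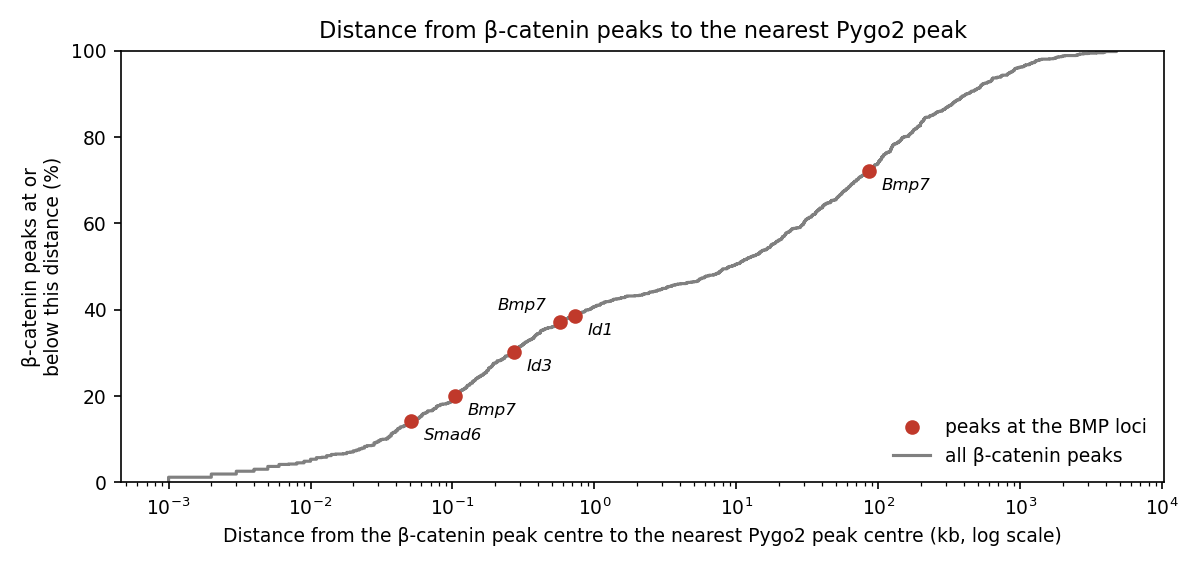
Distance from each β-catenin peak centre to the nearest Pygo2 peak centre in kb (log scale, distances under 1 bp drawn at 1 bp), as the cumulative share of all 1079 peaks (grey line), with the 6 peaks at the loci in red. The peaks at Smad6 and Id3, inside Bcl2l1 in the window of Id1 and at Rbm38 in the window of Bmp7 lie below 1 kb. The peak inside Bmp7 lies at 86.1 kb.

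The other genes of the pathway were taken from a list of 47, all of which matched the annotation. Of these, 7 had a β-catenin peak in the window (against 17.2% of all protein-coding genes), 28 a Pygo2 peak (against 57.6%) and 3 an overlapping pair (against 6.32%). By role, a Pygo2 peak was found at 4 of 10 further ligand genes, 8 of 10 receptor and co-receptor genes, 1 of 4 genes for signal-carrying Smads, 10 of 15 inhibitor genes, 1 of 2 ubiquitin ligase genes and 4 of 6 further target genes. β-catenin peaks were at 3 receptor genes, 1 inhibitor gene and 3 target genes. No ligand gene and no signal-carrying Smad gene of this list had a β-catenin peak. These shares over windows (14.9%, 59.6% and 6.38%) stood near the background. Counted by nearest gene, 5 of the 47 had a β-catenin peak (10.6%, against 4.18% of all protein-coding genes) and 20 a Pygo2 peak (42.6%, against 23.2%), so shares above the background by this count were not particular to the 10 genes.

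Overlapping pairs in the list were at Msx1, Atoh8 and Eng. At Msx1, a homeobox target gene of BMP signalling in the arches, the β-catenin peak (chromosome 5, 37895897 to 37896065) and the Pygo2 peak (37895824 to 37895990) lay 71.4 and 71.3 kb from the gene, which was the nearest to both. At Atoh8, which encodes a basic helix-loop-helix factor, the β-catenin peak (chromosome 6, 72216694 to 72216862) and the Pygo2 peak (72216700 to 72216866) lay inside the gene, 10.6 kb from an end. The pair in the window of Eng, a co-receptor gene, was 63.0 kb away by the β-catenin centre and nearer to Pip5kl1. The remaining genes with a β-catenin peak were Acvrl1, Hjv, Fstl1 and Zfp423. At Fstl1, which encodes a secreted follistatin-like protein, that peak was 0.384 kb from an end of the gene, and at Zfp423, which encodes a zinc finger partner of Smads, 1.47 kb. The most Pygo2 peaks in the list were in the windows of Eng (10), Acvrl1 (6), and Hjv and Dand5 (5 each), of which Eng and Acvrl1 were the nearest gene of 1 each, Hjv of 3 and Dand5 of 1. Pygo2 peaks within 1 kb of an end were at Nog and Grem1, genes for secreted BMP antagonists, at Bmp8a, a ligand gene, and at the receptor genes Acvr2b and Acvrl1. These are 5 of the 47 genes (10.6%), below the 16.5% of all protein-coding genes.

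The labelled tissue was looked at through peaks near marker genes, which is an indirect check because a peak does not measure expression. A Pygo2 peak in the window was found for 9 of 12 arch mesenchyme and neural crest genes, 4 of 7 pharyngeal epithelium genes, 3 of 5 endothelial genes, 2 of 5 blood genes, 2 of 5 neuronal genes and 2 of 6 hepatocyte genes, against 57.6% of all protein-coding genes. A β-catenin peak was found for 2 of the 12 arch genes, 2 of the 7 epithelial genes and none of the others, against 17.2%. Counted by nearest gene, Pygo2 peaks were found for 8 of the 12 arch genes and 1 of the 7 epithelial genes. The counts were 2 of 5 for endothelium, 1 of 5 for blood, 0 of 5 for neurons and 0 of 6 for hepatocytes, against 23.2%. Genes of a list that stand close together can share a peak in their windows. The lists hold 5 to 12 genes each, and no test between them was made. In dissected arches, a site used in few cells and a weak site in many cells cannot be told apart.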

How the data were processed

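ChIP-seq peak lists of 2 of the 7 libraries were used, β-catenin BA2 and Pygo2 BA2, 1 library per list. Per the labels' protocols, about 200 arches were cross-linked with EGS and formaldehyde. Per the file headers, the authors called peaks with HOMER findPeaks (factor style) against IgG BA1 at a false discovery rate of 0.001, requiring 2-fold enrichment and a Poisson p-value of 1e-04 both over IgG and over a local region of 10 kb, and counting at most 1 tag per position. Bowtie, Bowtie2, HOMER and the build mm10 are named, per the submitters' processing notes. The deposited score is 1 for every peak and was not used, nor were tag counts of single peaks. All peaks have one width, which is 169 bp (β-catenin) or 167 bp (Pygo2), and coordinates are 1-based on mm10.

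Genes and promoter sequences came from RefSeq tables of GRCm38.p6, the assembly of mm10. The gene table gives no strand, so upstream and downstream are used only where the promoter table gives one. A peak was assigned by its centre, the nearest gene was taken by distance to the gene body (equal distances by the nearer end), and overlap meant at least 1 bp. Assignment was tested on simulated peaks. Python 3.11.15, NumPy 2.4.6, pandas 2.3.3, SciPy 1.17.1 and Matplotlib 3.10.9 were used. All 10 genes are named, with the nearest protein-coding gene of a peak where it is another. Of the 47 other pathway genes, those with overlapping peaks, then those with a β-catenin peak, then those with most Pygo2 peaks are named; those whose ends had Pygo2 at 1 kb or less were added after their values were seen. The members, lists and motifs were chosen with earlier results of these data known, so no set test was made. Alternatives were the window, nearest-gene assignment, the overlap rule, the first-listed 50% of each list and a Pygo2 list of equal length.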

Additional observations from a re-analysis of the deposited data

How the results depend on the processing

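The genes with a β-catenin peak were 4 as reported (17.2% of all protein-coding genes), 3 at 50 kb (11.2%), 3 at 10 kb (5.46%), 3 with nearest genes only (4.18%) and 4 in the first-listed 50% (10.3%). Those with a Pygo2 peak were 7 as reported (57.6%), 7 at 50 kb (46.5%), 5 at 10 kb (30%), 6 with nearest genes only (23.2%), 5 in the first-listed 50% (40.7%) and 3 (Smad6, Id1 and Id3) when the Pygo2 list was shortened to 1079 peaks (19.2%). In that shortened list, with nearest genes only, a setting chosen after seeing the data, Smad6, Id1 and Id3 had 2 Pygo2 peaks each, against 7, 3 and 2 as reported. The overlapping pair at Smad6 was present under all 7 alternatives run on overlaps. The pair at Rbm38 was lost with windows of 50 kb and 10 kb, with nearest genes only, in the first-listed 50% of the lists, with the shortened Pygo2 list and when 50% of the β-catenin peak had to overlap, each of which left 1 gene and 1 overlapping pair where 2 were reported. With centres within 500 bp counted as shared, Id3 was added and the count was 3 for both. β-catenin peaks at the loci numbered 6 as reported and 3 with windows of 50 kb, of 10 kb and with nearest genes only. Pygo2 peaks numbered 31 as reported, 12 at 10 kb, 16 with nearest genes only, 20 in the first-listed 50% and 8 with the shortened list. Each of these settings removes peaks by construction. Among the first-listed 50%, 4 of the 7 Pygo2 peaks of Smad6 and all 8 of Id1 were present, and Smad7 and Bmpr1a had none. The Pygo2 cut at 50% fell inside a run in genome order, from position 3446 to 4122. That run held the Id1 peaks at positions 3539 and 3540 and the Smad7 peak at 4097. Which of these were kept thus followed chromosome order. The cut at 1079 peaks also fell inside a run, from position 939 to 1100. Peaks close to the calling minimum could be absent from a list for lack of depth, and no list of a second library was used here to check this. No paired analysis was possible because each protein had 1 library and no test was made.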
